A study of Drosophila melanogaster with 3 samples.

Results

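The Hox genes of Drosophila melanogaster lie in 2 gene complexes on chromosome arm 3R, the Antennapedia complex (ANT-C) and the bithorax complex (BX-C), and are described here by the Yorkie (Yki) ChIP-seq density along them in S2 cells. The complexes were taken as fixed windows in the dm3 build, 3R 2480000 to 2830000 for ANT-C (350 kb; lab, pb, Dfd, Scr and Antp) and 3R 12480000 to 12810000 for BX-C (330 kb; Ubx, abd-A and Abd-B). Every listed Yki interval with its midpoint inside a window was a member, which gave 6 intervals in ANT-C and 8 in BX-C, 14 of the 3990 intervals of the whole list and of the 1008 on 3R. The rule for the windows uses positions and no measured value.

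The series held 2 libraries of S2 chromatin immunoprecipitated with an anti-Yki antibody and 1 input library without antibody. S2 is an established line derived from Drosophila embryos; it carried no treatment in the labels, and both kinds of library came from formaldehyde-fixed cultures of it. The free-text descriptions contradict the titles, since they call the ChIP libraries GAF ChIP from embryos and the input Yki ChIP from embryos. Source, cell line and antibody entries match the titles, and the titles set the groups. The deposited values are 1 interval list and 1 density profile with no value for a single library, so no replicate error exists for any value below, and the read depth of each library is unknown.

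Hox genes encode homeodomain transcription factors that give segments their identity along the body axis, and their order on the chromosome follows the order of their domains in the embryo. Their off state is kept by Polycomb group proteins and their on state by Trithorax group proteins, which act through response elements spread over the long noncoding stretches of the complexes; BX-C is the classic case, with boundary elements between its regulatory domains. Yki is the transcriptional coactivator restrained by the Hippo pathway, reaches DNA through partners such as Scalloped, and also works with Homothorax, which is itself a cofactor of Hox proteins. Within ANT-C, lab, pb, Dfd and Scr specify parts of the head, mouthparts and first thoracic segment, and Antp the thorax. Within BX-C, Ubx acts in the posterior thorax and first abdominal segment, abd-A in the anterior and middle abdomen, and Abd-B in the posterior abdomen and genitalia.

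A RefSeq gene table of Release 6 gave the neighbours of the 8 genes by name. From lab to Antp it listed 43 genes, 19 of them protein-coding, in the order lab, pb, Dfd, Scr, Antp. A group of cuticle protein genes lies between lab and pb, zen, bcd and Ama between pb and Dfd, and ftz between Scr and Antp. From Ubx to Abd-B it listed 16 genes, 6 of them protein-coding, among them Glut3 before abd-A and the microRNA genes mir-iab-4 and mir-iab-8 between abd-A and Abd-B. The table is of another build than the intervals, so no interval was assigned to a gene, a response element or a boundary. Positions below are distances from the start of each window.

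Neither complex was rich in listed Yki intervals. ANT-C held 6, or 17.1 per Mb (95% exact Poisson interval 6.29 to 37.3), and BX-C held 8, or 24.2 per Mb (10.5 to 47.8), against 36.5 per Mb over 3R outside the complexes. Both ranges contain the value for the rest of the arm and cover counting error only. Among 75 non-overlapping 3R windows of the size of ANT-C the median was 11 intervals, and 20 windows (26.7%) held as few as ANT-C or fewer. Among 80 windows of the size of BX-C the median was 10, and 31 windows (38.8%) held as few or fewer. At these sizes 3R windows ran from 0 intervals, at 23800001 to 24150000 and at 23760001 to 24090000, up to 34 and 37 intervals, so both complexes lay in the lower part of the ordinary range. The window edges matter for both complexes. With both edges of ANT-C moved out by 50 kb, 10.5% of 3R windows held as few intervals or fewer, and with the compared windows shifted by 0.5 of a window 14.7% did. At BX-C an interval of height 92.8 ended 1.83 kb before the window and another of 86.5 began 1.39 kb after it, and with both edges moved out by 50 kb the count was 15, with 57.4% of 3R windows at or below it. For ANT-C the nearest listed intervals outside lay 193 kb before and 32.9 kb after the window, with heights of 75.5 and 229.6.

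**Figure D1:**
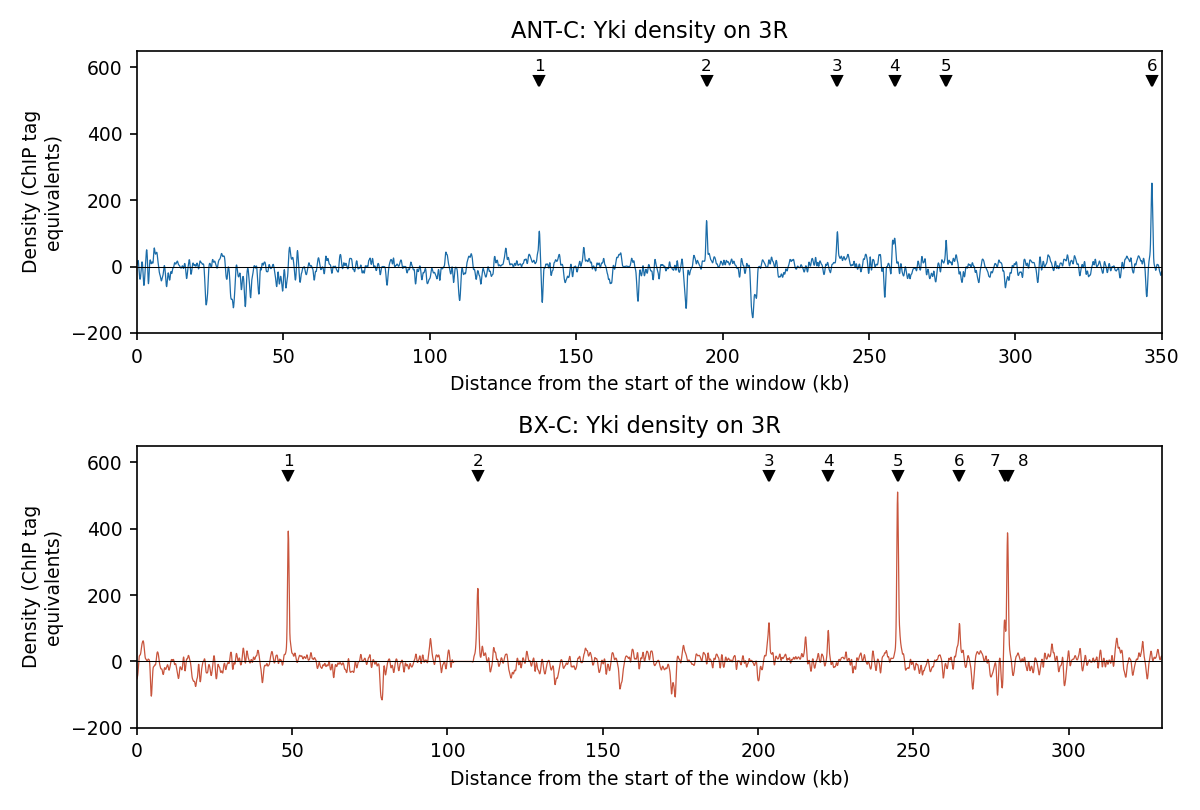
Yki density (y axis, ChIP tag equivalents, after subtraction of input) along ANT-C and BX-C (x axis, kb from the start of each window), with 1 value per 100 bp and numbered triangles above the listed intervals. ANT-C stays at 251 or lower and has no listed interval in its first 137 kb, whereas BX-C has 4 intervals with heights between 219.7 and 510.04.

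Heights are given in ChIP tag equivalents. Isolated bumps in the whole profile had the shape of a single Gaussian of SD 200.4 bp with a top of 0.99, which was read as 1 ChIP tag, and isolated dips had a depth of 0.36, read as 1 input tag. The height of an interval is its highest sample. On this reading the heights of the 14 intervals carry counting SDs of at least 7.46 to 18.99 from the ChIP tags alone. The spread of the density away from intervals was taken as its median absolute deviation (MAD), over samples more than 1000 bp from any interval. It was 13.2 in ANT-C and 12.6 in BX-C. The MAD describes the middle of the background and is not the error of a height. The background also fell as low as -153.9 in ANT-C and -115.9 in BX-C, so multiples of the MAD do not measure signal over noise.

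BX-C intervals 5, 1 and 8 stood well above every ANT-C interval, the highest of which reached 251. BX-C interval 2 was lower than that ANT-C interval. The highest of all was BX-C interval 5, at 3R 12724478 to 12725771, 244.9 kb into the window. It reached 510.04 over a width of 1294 bp and averaged 274.6 inside, against 0.37 in the flanks 2 to 5 kb away. Its height was 40.5 times the background MAD and ranked 79 among the 1008 intervals of 3R, and its width ranked 76. The density rose from 23.8 at 1 kb before the highest sample and fell more slowly after it, to 145 at 500 bp and 55.7 at 1 kb.

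BX-C interval 1, at 12528404 to 12529075 and 48.7 kb into the window, reached 392 over 672 bp with a flanking mean of 9.79. BX-C interval 8, at 12760005 to 12760694 and 280 kb into the window, reached 387 over 690 bp with a flanking mean of -11.6. These heights differ by less than the counting SD of at least 16.7 and 16.5, and they ranked 127 and 130 on 3R. BX-C interval 2, at 12589404 to 12590127, reached 219.7 over 724 bp and had a flanking mean of 1.74. Its left flank held almost no density in either direction, with -9.9e-06 at 2500 bp before the highest sample. The bin of 5 kb at 105 to 110 kb had a median of -4.3e-34. The part of such near-empty stretches in flanking means, medians and the background MAD was not tested. Interval 2 lay 60.3 kb after the end of interval 1, and the next 93.2 kb held no listed interval.

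The other 4 BX-C intervals were lower, from 93.2 to 124.7, so that the 8 heights fell on both sides of an empty range from 124.7 to 219.7. Interval 3, at 12683326 to 12683768, reached 116, and interval 6, at 12744688 to 12744969, reached 114.02. Interval 4, at 12702448 to 12702743, was the lowest at 93.2. Interval 7, at 12759161 to 12759454, reached 124.7 and was separated from interval 8 by 550 bp. Their highest samples lay 900 bp apart and the density between them fell no lower than 90.9. Interval 7 thus had a top of its own close beside its taller neighbour.

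Along BX-C the listed intervals were unevenly placed. Intervals 3 to 8, 6 of the 8, lay within 77.4 kb, between 203.5 and 280 kb into the window, in the part of the complex that runs toward Abd-B by gene order. The last 49.3 kb of the window held none. Intervals 1 and 2 stood alone toward Ubx. The bin of 10 kb with the highest mean density was the one at 240 to 250 kb (45.3), which holds interval 5. The lowest was the one at 10 to 20 kb (-20.2), and the first 30 kb of the window had a median of -15.3 with no interval.

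ANT-C held 1 interval that reached 200. ANT-C interval 6, at 2826261 to 2826984, reached 251 over 724 bp, with a flanking mean of 2.26, and ranked 236 on 3R. It ended 3.02 kb before the end of the window on the side of Antp, so its place in the complex rests on that edge. Its height was 19.01 times the background MAD.

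The remaining 5 ANT-C intervals ranged from 78.6 to 138. Interval 2, at 2674363 to 2674759, reached 138, ranked 492 on 3R, and was the only one of them above the median height of 3R intervals outside the complexes, which was 136. Interval 1, at 2617255 to 2617588, reached 106, and the density dropped to -108 at 1 kb after its highest sample, a depth about equal to its height. Interval 3, at 2719081 to 2719387, reached 105. Interval 4, at 2738659 to 2738913, reached 85.2 and had a second top of 79.5 at 600 bp before it, with 67.7 between them. Interval 5, at 2756183 to 2756508, was the lowest member of either complex at 78.6, or 5.95 times the background MAD.

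The heights of both complexes overlapped widely. The median was 105.5 in ANT-C (78.6 to 251) and 172 in BX-C (93.2 to 510.04), beside 136 (quartiles 99.7 and 241) for the 994 intervals of 3R outside them. Of these 994, 74.4% reached 100 and 31.8% reached 200. In ANT-C 4 of 6 reached 100 and 1 reached 200, and in BX-C 7 of 8 reached 100 and 4 reached 200. Heights were not tested between the complexes or against the arm, since 1 pooled profile has no replicates.

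**Figure D2:**
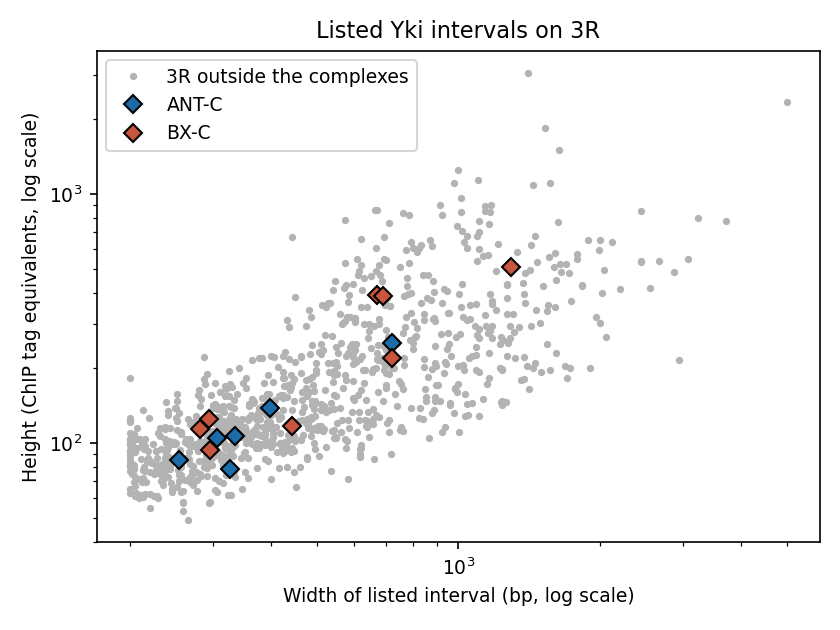
Height (y axis, ChIP tag equivalents, log scale) against width (x axis, bp, log scale) of each listed interval on 3R, with the 6 ANT-C and 8 BX-C intervals as diamonds over the 994 others in grey. The members follow the band of the other intervals: 5 members lie at 200 or more and all are 672 bp or wider, and the other 9 lie at 138 or lower and are 443 bp or narrower.

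Listed widths ran from 255 to 724 bp in ANT-C (median 330 bp) and from 282 to 1294 bp in BX-C (median 557.5 bp), beside a median of 451 bp elsewhere on 3R. The mean density of members lay above the flanks in 14 of 14 cases, against 94.2% of the other 3R intervals. The width at 0.5 of the height ranged from 572 to 844 bp in 12 of the 14, where a single tag alone would give 472 bp through the smoothing. In the other 2, ANT-C interval 4 (1366 bp) and BX-C interval 7 (1776 bp), a second top was included. Of the other 3R intervals 43.6% had a width of 1000 bp or more at 0.5 of the height, and their median was 883 bp against 665 bp in ANT-C and 699.5 bp in BX-C. Midpoints of neighbouring members lay a median of 44.7 kb apart in ANT-C and 19.7 kb in BX-C, against 7.01 kb elsewhere on 3R. Only the pair of intervals 7 and 8 in BX-C lay under 5 kb apart, 1 of 7 neighbouring pairs there and 0 of 5 in ANT-C, against 44% of the pairs elsewhere. Fewer intervals on the same length also lie farther apart, and a neighbour within reach of the smoothing widens an interval; the part of either in these values was not tested.

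**Figure D3:**
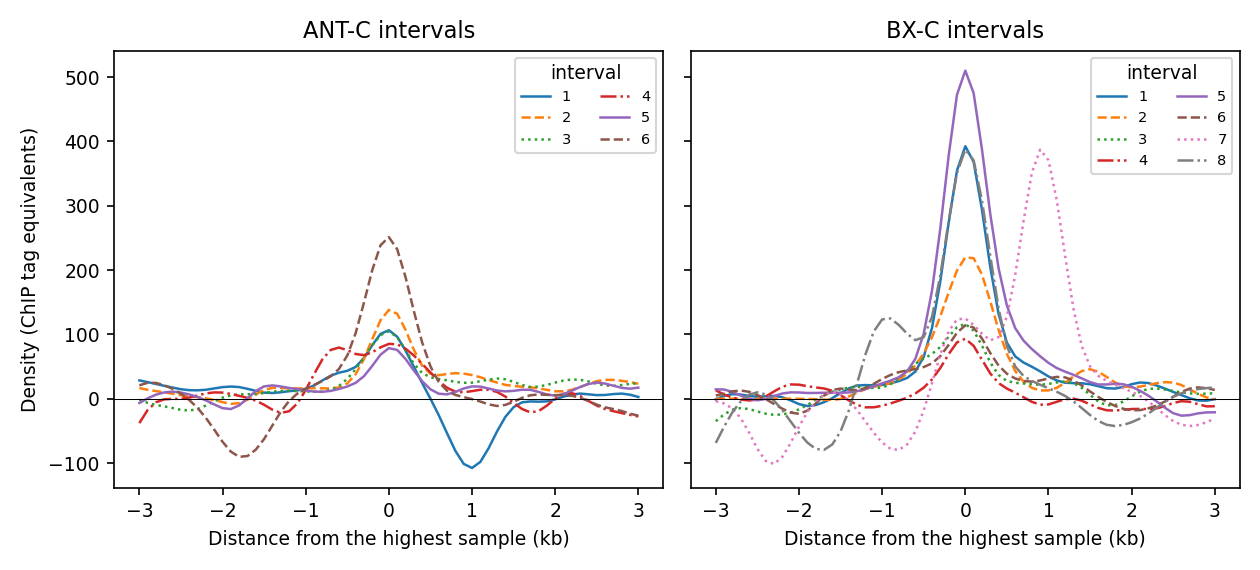
Density (y axis, ChIP tag equivalents) around the highest sample of each listed interval (x axis, kb from that sample), 1 line per interval, in ANT-C and BX-C. BX-C intervals 1 and 8 nearly coincide at 392 and 387, interval 7 shows its taller neighbour on the right, and ANT-C interval 1 is followed by a drop to -108.

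Listed intervals covered little of ANT-C. They took up 0.63% of its samples, against 2.24% of the samples of 3R outside the complexes, and 13.3% of 3R windows of its size had as small a part or smaller. In BX-C they took up 1.45%, with 36.2% of windows at or below it. Of all density above 0, intervals held 9.66% in ANT-C, 28.3% in BX-C and 32.7% elsewhere on the arm.

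The first part of ANT-C, on the side of lab and pb, held no listed interval at all. The stretch without one ran from 2286658 to 2617254, 331 kb in all, of which the last 137 kb lay inside the window. Of the 1007 stretches between neighbouring intervals on 3R only 2 were longer. Inside the window, from its start to 1000 bp before interval 1, the median density was -2.57, the highest sample 58.2 and the lowest -124.1. In BX-C the longest such stretch, from 12590128 to 12683325, measured 93.2 kb, and 78 stretches on 3R were longer. Samples of this BX-C stretch ran from -106.98 to 106.9, with a median of 0.37. The 106.9 lay 400 bp after the highest sample of interval 2, on the slope of that interval. For BX-C the 1000 bp beside the interval were not left out.

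By share of samples, density at the level of a listed interval was scarce in ANT-C. Equally deep density below 0 was by the same measure scarce in BX-C. Samples at or above 100 made up 0.43% of ANT-C (15 of 3500), 1.48% of BX-C (49 of 3300) and 2.25% of 3R outside the complexes. Only 6.67% of windows had a share as small as that of ANT-C or smaller, against 40% for BX-C. Samples at or below -100, where input exceeded ChIP by as much, made up 1.06% of ANT-C (37), 0.30% of BX-C (10) and 2.16% elsewhere. Here BX-C was the lower, with 3.75% of windows at or below it, against 28% for ANT-C. Among windows of the size of ANT-C, the one at 25550001 to 25900000 had the largest share in both directions, 10.7% above and 9.46% below. The smallest shares were 0% above, at 23800001 to 24150000, and 0.11% below, at 3150001 to 3500000.

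Counted as runs of samples, ANT-C had 4 regions at or above 100 and 8 at or below -100. BX-C had 7 and 4. Per Mb these were 11.4 above and 22.9 below in ANT-C, 21.2 and 12.1 in BX-C, and 27.9 and 30.6 elsewhere on 3R. Of 3R windows of the size of ANT-C, 29.3% had as few regions above or fewer, and 41.3% as few below. For BX-C these shares of windows were 41.25% above and 21.25% below. Ranks of the sample shares at or above 100 and at or below -100 were not recomputed under an alternative. At a size of 200, BX-C had 4 regions above 0 and ANT-C 1, or 12.1 and 2.86 per Mb beside 11.9 elsewhere. Neither had a region below 0 at that size, where 2.61 per Mb elsewhere leaves few to be met in a window of this length. All 11 regions above 100 in the complexes touched a listed interval, against 90% elsewhere.

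The lowest sample of ANT-C was -153.9, in a region from 2689741 to 2690741, 15.6 kb from the nearest interval, and 24% of windows had a lowest sample as high or higher. Of its 8 regions below -100, 4 lay before interval 1, and 3 of these between 23.6 and 37.04 kb into the window. The bin at 30 to 40 kb had the lowest mean of the complex, -46.7. The lowest sample of BX-C was -115.9, in a region from 12558541 to 12559041, between intervals 1 and 2. Of 80 windows 1.25% had a lowest sample as high or higher, and the deepest on 3R, at 25410001 to 25740000, reached -633. A sample below -100 lay within 5 kb of ANT-C interval 1 and of BX-C intervals 7 and 8, 3 of the 14, against 29.9% of the other 3R intervals. BX-C intervals 7 and 8 shared the same 1 sample, of -101.5.

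The highest sample of ANT-C was low for a window of its size, with 17.3% of windows at or below it, and that of BX-C was near the middle, with 48.8%. By median density the level of the complexes was near that of the arm. The median was 0.78 in ANT-C and 0.33 in BX-C, against -0.00017 over 3R outside them. Of windows of their sizes, 62.7% and 56.2% had as low a median or lower. Mean density put the complexes in the other order, at -2.28 in ANT-C and 1.72 in BX-C, against -0.62 over 3R outside them. Medians of windows of the size of ANT-C ran from -17.3, at 24150001 to 24500000, to 15.3, at 4900001 to 5250000. The share of samples below 0 was 48.3% and 49.3%, against 51.6%. In 10 kb bins the mean was above 0 in 14 of 35 bins of ANT-C (40.0%), in 19 of 33 of BX-C (57.6%) and in 41.7% of bins elsewhere. The SD of the bin means was 13.01 in ANT-C and 14.1 in BX-C, against medians of 22.6 over the 3R windows of either size, and 8% and 10% of windows had as small an SD or smaller. The background MAD was also small, 13.2 and 12.6 against 16.98 elsewhere, with 14.7% and 11.2% of windows as small or smaller. With windows from 2L, 2R, 3L and 3R together these shares were 27.04% and 23.3%. Windows of the size of BX-C ran from 11.2, at 21450001 to 21780000, to 29.5, at 25410001 to 25740000. Because the input was subtracted before deposit, a smaller spread from fewer ChIP tags and one from fewer input tags cannot be told apart.

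**Figure D4:**
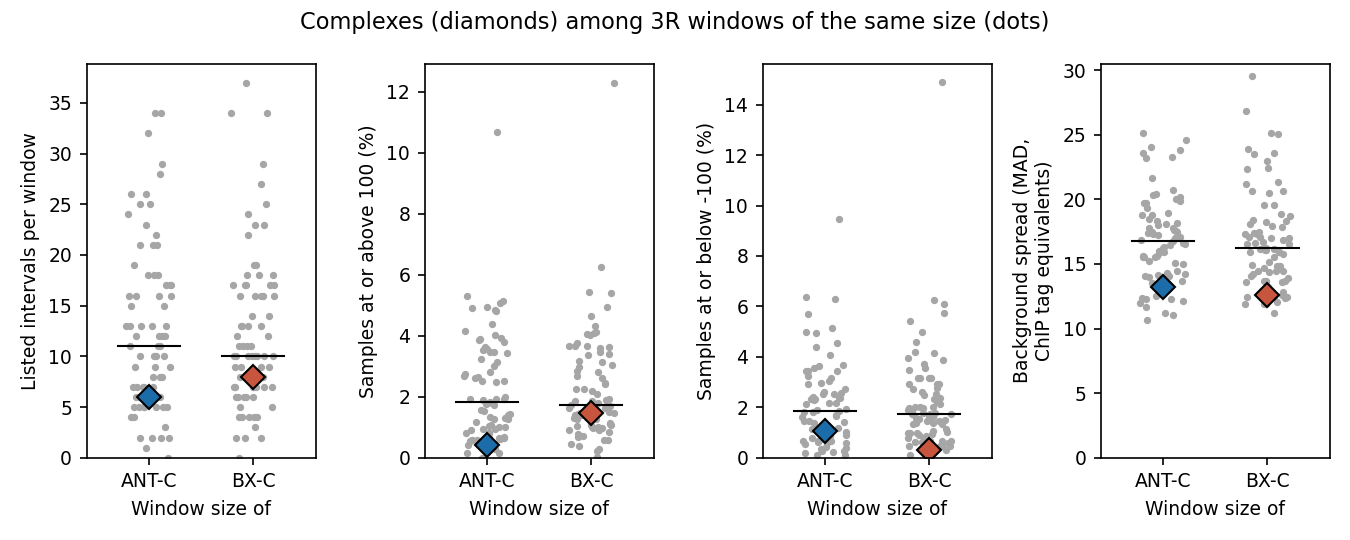
Number of listed intervals, share of samples (%) at or above 100 and at or below -100, and background MAD (ChIP tag equivalents) in ANT-C and BX-C (diamonds) and in the 75 and 80 non-overlapping 3R windows of their sizes (dots, bar at the median). ANT-C lies low for samples at or above 100 (0.43%), BX-C for samples at or below -100 (0.30%), and both lie below the bar in all 4 plots.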

How the data were processed

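Yki ChIP-seq was measured in S2 cells in 2 ChIP libraries and 1 input library, grouped by sample title. Libraries were made by Nextera tagmentation with selection of fragments on a gel, per the labels' protocols. CASAVA 1.7.0, BWA, Bowtie and dm3 appear in the submitters' processing notes; for the role of each and for the peak caller no statement was found (not given in the sources used here). Scores are absent from the deposited interval list. The authors also deposited a density score for each 100 bp which is smoothed and background-subtracted, per the file headers. The header joins 2 library codes and 1 input code that match no label; they were taken as the 3 libraries, pooled. Smoothing widens narrow signals, and subtraction lets the score fall below 0.

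Interval starts were raised by 1 to be 1-based. A sample belonged to an interval or window if its centre lay inside. Same-size windows were counted from the start of 3R, leaving out any that overlap a complex. The counting SD is the square root of a quotient, the height over the square root of 2. No test was possible: no library has its own value, so ranks are descriptions. Intervals are Poisson 95%, exact. Every interval was named because each complex held 10 or fewer. The windows, members and measures were chosen with earlier results of these data known. Density per gene was planned only for an annotation of dm3 and was not run. Alternatives moved window edges, window sets, sizes and bins. Python 3.11.15, numpy 2.4.6, pandas 2.3.3, scipy 1.17.1 and matplotlib 3.10.9 were used. Counts of intervals and regions, coverage and spread were checked on simulated data with planted intervals and dips and independent noise. That noise was not smoothed as the real profile is, so the check covers the calculation only.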

Additional observations from a re-analysis of the deposited data

How the results depend on the processing

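Of 128 values recomputed under an alternative, 107 kept within their limits and 21 did not. Limits were 1.5 times for a count and a 95% binomial interval for a share. For medians, heights and the MAD they were 95% limits of a median from ranked values. Samples were taken as independent at 1 in 10. For heights these limits spanned all 6 or 8 intervals of a complex, from lowest to highest. For the ANT-C share at or above 100 they were wide enough to hold 1.8% at a size of 50 and 0.086% at 200. Some alternatives were also fixed in advance. Neither complex had a sample at exactly 0 to leave out, and no members lay within 500 bp of each other to be joined. A count without 1 interval is lower by 1 by construction. The 107 is therefore no measure of stability. The share of windows with as few intervals as ANT-C was 14.7% with windows shifted by 0.5 of a window and 10.5% with both edges moved out by 50 kb. For BX-C, edges moved out gave 15 intervals and 57.4% of windows. With windows from 2L, 2R, 3L and 3R together, the share with as small a background spread was 27.04% for ANT-C and 23.3% for BX-C, and the share with as few samples below 0 as ANT-C was 49.6%. Intervals widened by 500 bp covered 2.34% of ANT-C and 3.73% of BX-C, which the widening itself brings. Regions above 0 in ANT-C numbered 11 at a size of 50, 1 at 150 and 1 at 200, and in BX-C 13, 4 and 4. Regions below 0 numbered 27, 1 and 0 in ANT-C and 17, 0 and 0 in BX-C. A larger size cannot give more samples; for the rest the cause was not tested. Windows counted outwards from each complex, and counts without 1 interval, were added after seeing the data. No paired analysis was possible because both files pool the libraries, and for the same reason no library could be left out. Without the depth of the libraries, detection limits could not be set.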

Other observations

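The stretches beside the complexes differed in their number of listed intervals. The window of the same size before ANT-C held 6 and the one after it 15, with median densities of 0 and 2.31 and background MADs of 14.9 and 14.98. Before BX-C the count was 6 and after it 13, with medians of -4.24 and 1.68 and MADs of 16.1 and 14.9. On both sides of both complexes the background MAD was larger than inside them (13.2 in ANT-C and 12.6 in BX-C).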
